A study of Homo sapiens with 7 samples.

Results

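Dense clusters of Myc binding sites were described in HT29 cells, a standard cell line of human colon adenocarcinoma. The clusters were selected on measured values, the positions of called peaks, and their folds come from the same list, so all values here are a description with no test. They are chains of neighbouring peaks from the 1 deposited Myc peak list, in which each gap from the end of a peak to the start of the next was at most 5000 bp. Runs of at least 4 peaks on chromosomes 1 to 7 and 9 to 22 were kept, and 1268 chains with 6855 of the 42572 peaks on these chromosomes met the rule. The whole list holds 47017 peaks, and chromosome 8 was not analysed here. By their titles, 3 libraries were made against Myc, 3 were IgG controls and 1 was an input, although the labels name the Myc antibody CMYC-101AP for the IgG libraries too. All 7 libraries came from HT29 cells exposed for 6 h to oleic acid in medium without serum, after growth in McCoy's medium with FBS. No untreated library was analysed here and the list holds no values for single libraries, so nothing below says what oleic acid did or how far the Myc libraries differed from each other. The chains overlapped 1466 of 18408 coding genes by at least 1 base, 7.96% of them. For 1123 genes, 6.1%, the summit of a chain peak lay within 1 kb of an annotated end.

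Myc is a transcription factor that binds DNA as a pair with its partner MAX, most strongly at the E-box CACGTG and more loosely at related letters. It is found at a large part of active promoters and at many enhancers, and it drives genes of ribosome assembly, metabolism and cell division. In the intestine it acts downstream of WNT signalling, and WNT signalling is permanently on in most colon cancers. CUT&RUN maps such a factor by cutting the DNA around an antibody bound to it inside permeable cells. HT29 DNA has gained and lost parts of chromosomes, so the number of gene copies differs along the genome.

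Promoter windows show what lies under chain peaks at gene starts. Each window runs from 250 bases before to 50 bases after a RefSeq gene start (build GRCh38.p14) and is printed 5′ to 3′ on the strand of its gene. CACGTG, which reads the same on both strands, is in capitals. HOXA7 and HOXA9 lie in the chain with the most peaks. CCDC9 and TSC2 have the strongest chain peaks among windows with CACGTG in chains of 10 or more peaks. RPLP2 and PLK3 lie at far stronger peaks, and their windows hold no CACGTG but do hold the related CACGCG.
HOXA7 (chr7:27156626-27156925, minus strand): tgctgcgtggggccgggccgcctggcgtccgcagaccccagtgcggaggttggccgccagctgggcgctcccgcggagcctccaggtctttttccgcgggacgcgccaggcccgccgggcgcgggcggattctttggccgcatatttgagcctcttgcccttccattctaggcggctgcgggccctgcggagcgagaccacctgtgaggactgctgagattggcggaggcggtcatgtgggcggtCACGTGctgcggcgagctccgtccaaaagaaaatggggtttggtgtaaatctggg
HOXA9 (chr7:27165488-27165787, minus strand): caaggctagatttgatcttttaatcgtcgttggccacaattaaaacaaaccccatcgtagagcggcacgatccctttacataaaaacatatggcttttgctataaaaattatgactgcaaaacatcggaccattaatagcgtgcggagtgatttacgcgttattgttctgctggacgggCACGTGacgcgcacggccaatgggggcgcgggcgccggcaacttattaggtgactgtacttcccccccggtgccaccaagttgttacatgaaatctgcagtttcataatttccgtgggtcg
CCDC9 (chr19:47256275-47256574, plus strand): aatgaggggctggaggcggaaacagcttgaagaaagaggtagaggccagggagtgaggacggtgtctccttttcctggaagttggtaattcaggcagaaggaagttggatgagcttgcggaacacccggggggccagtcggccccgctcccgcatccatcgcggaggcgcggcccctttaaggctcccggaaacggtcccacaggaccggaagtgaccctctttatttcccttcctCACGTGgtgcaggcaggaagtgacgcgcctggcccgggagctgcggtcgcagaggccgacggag
TSC2 (chr16:2047735-2048034, plus strand): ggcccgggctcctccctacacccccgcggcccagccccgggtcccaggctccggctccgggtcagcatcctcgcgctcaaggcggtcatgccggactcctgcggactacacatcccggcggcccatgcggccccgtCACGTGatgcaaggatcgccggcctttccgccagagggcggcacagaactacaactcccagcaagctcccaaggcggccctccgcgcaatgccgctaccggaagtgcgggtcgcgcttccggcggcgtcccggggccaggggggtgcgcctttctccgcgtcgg
RPLP2 (chr11:809717-810016, plus strand): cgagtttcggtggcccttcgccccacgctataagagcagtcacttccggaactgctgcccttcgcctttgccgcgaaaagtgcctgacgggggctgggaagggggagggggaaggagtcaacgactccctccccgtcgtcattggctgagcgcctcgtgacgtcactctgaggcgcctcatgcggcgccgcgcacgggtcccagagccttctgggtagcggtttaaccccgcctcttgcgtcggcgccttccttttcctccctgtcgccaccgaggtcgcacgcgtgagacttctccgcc
PLK3 (chr1:44800127-44800426, plus strand): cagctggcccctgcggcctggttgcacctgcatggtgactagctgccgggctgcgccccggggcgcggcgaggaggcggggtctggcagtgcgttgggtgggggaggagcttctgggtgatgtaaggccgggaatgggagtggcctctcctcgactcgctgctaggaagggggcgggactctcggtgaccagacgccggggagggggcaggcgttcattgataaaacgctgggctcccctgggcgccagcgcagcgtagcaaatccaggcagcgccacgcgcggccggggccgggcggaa
Counted from the gene start to its first base, the CACGTG sat at -5 in HOXA7, -71 in HOXA9, -14 in CCDC9 and -114 in TSC2. TSC2, a brake on the growth kinase mTOR, and NTHL1, a DNA repair enzyme, start in opposite directions, and their windows share this CACGTG. The fold enrichment of the peaks over these windows was 5.31 for HOXA7, 8.38 for HOXA9, 15.9 for CCDC9 and 11.3 for TSC2. The HOXA9 window lies at an edge of a very broad peak, far from its summit. The folds at RPLP2 and PLK3 were 29.5 and 30.1. Chains of 10 or more peaks held 146 windows of 107 genes, and 10 windows had the letters, those of HOXA3, HOXA4, TSPAN4, BBC3, TENT5B and NTHL1 besides the 4 above.

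Over all chains, CACGTG was found in 108 of 1186 windows overlapped by a chain peak (9.11%, Wilson 95% interval 7.6 to 10.9). The share was 10.4% (9.85 to 11) of 10648 windows overlapped by another peak, 5.57% (5.12 to 6.06) of 9206 windows without a peak and 8.22% of all 21040 windows. The chain windows therefore held the E-box about as often as other bound windows. The related CACGCG, searched on both strands, was in 19.6% of chain windows, 18.8% of windows with another peak and 8.41% of windows without one. TGANTCA, the letters bound by the AP-1 factors and the same on both strands, was in 5.82%, 4.47% and 7.99%. The median GC content of the windows was 67%, 65.7% and 55.7% in the same order, so the letters were counted in windows of unlike composition. A match is a description of the letters and not of a bound site.

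Most chains held few peaks. There were 629 chains of 4 peaks, 262 of 5, 141 of 6, 163 of 7 to 9 and 73 of 10 or more, and 4 chains had 20 or more. They held 16.1% of the peaks (Wilson 15.8 to 16.5). Spans ran from 2218 to 119017 bp with a median of 11886 bp, and 90% lay between 5592 and 27930 bp. All spans together came to 17.5 Mb, of which peaks covered 7.98 Mb. The typical gap inside a chain was 1250 bp, and 23.9% of the 5587 gaps were under 500 bp. Of all gaps between neighbouring peaks, 1422 lay in the 1 kb just inside the limit and 1272 in the 1 kb just outside it. Chains of 4 peaks had a median span of 9377 bp and a median strongest fold of 7.94, and the 1523 runs of 3 peaks, just outside the rule, had 6453 bp and 7.

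**Figure D1:**
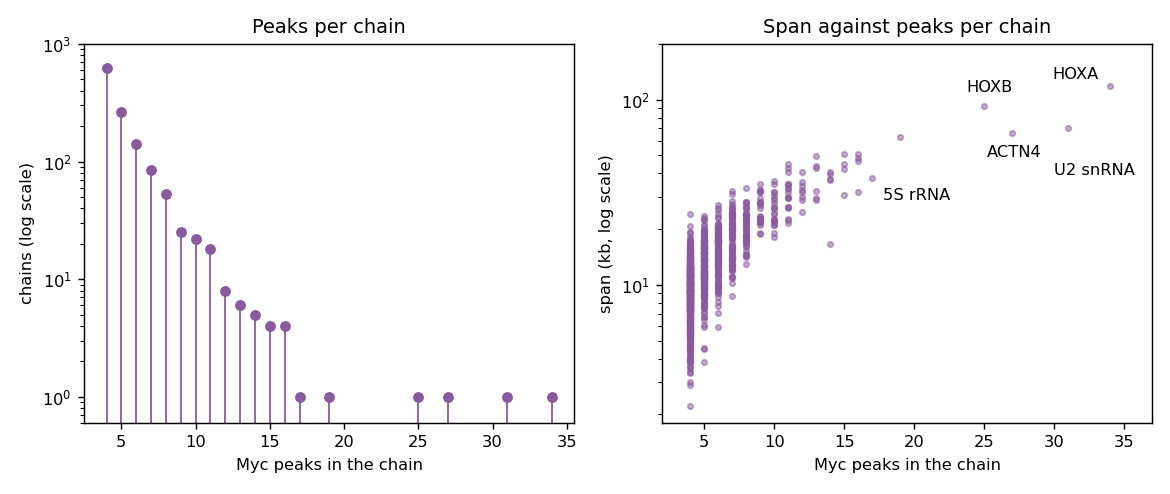
Number of chains by peaks per chain (left, log scale) and span of each of the 1268 chains in kb (log scale) against its number of peaks (right). Chains of 4 peaks number 629, and the 4 chains with 20 or more peaks cover the HOXA cluster, the U2 snRNA genes, ACTN4 and the HOXB cluster.

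The peaks of a chain were no stronger than peaks elsewhere. The fold enrichment, the authors' ratio of Myc signal to control at the summit, had a median of 4.27 in chain peaks and 4.27 in the 35717 other peaks. The median pileup, the number of fragments over the summit, was 30 in both sets, and the median control level was 5.89 fragments in both. Folds of 10 or more made up 9.95% of chain peaks (9.26 to 10.7) and 10.3% of other peaks (9.99 to 10.6). Chain peaks were wider, with a median of 800 bp against 698 bp, and 14.9% of them against 9.62% exceeded 2000 bp. In chains of 10 or more peaks, 21.8% exceeded 2000 bp. These intervals and those below cover counting error only.

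The spread of folds within a chain is given here with no value to set it against, since the strongest of several peaks is above the others by construction. The strongest peak of a chain had a median fold of 8.92, and the other 5587 chain peaks had 3.84. The strongest peak was 1.85 times the chain's median in the typical chain, and 90% of chains lay between 1.14 and 4.28 times. SMAD6, an inhibitor of BMP signalling, had an even chain, with folds of 9.55, 9.54, 10.2, 6.98 and 7.63 along the gene. REPIN1, which encodes a zinc finger protein, had the opposite layout, with 6 peaks between 2.99 and 4.19 and a last one at 30.6. The maximum in a chain of n peaks tends to be larger for larger n. The median strongest fold was 7.94 in chains of 4, 9.39 in chains of 5 and 9.67 in chains of 6. It was 10.6 in chains of 7 to 9 and 10.4 in chains of 10 or more. The median of all peaks in each of these classes stayed between 4.24 and 4.40.

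Chain peaks lay farther from the ends of coding genes than other peaks did at short range, and closer at long range. The summit was within 1 kb of an annotated end in 18.9% of chain peaks (18 to 19.8), against 25.8% of other peaks (25.3 to 26.2). Within 250 bp the shares were 7.96% and 14.8%. The order turned at about 3 kb, with 34.9% and 34.5%, and within 5 kb it was 46.2% in chains against 39.8% elsewhere. Counting only transcription starts, which the promoter table gives for 15100 coding genes, 14.9% of chain summits and 23.5% of other summits lay within 1 kb. The summit was inside a coding gene in 59.2% of chain peaks and 57.7% of other peaks. The strongest peak of the chain lay within 1 kb of an end in 410 chains (32.3%, 29.8 to 35), and the weaker chain peaks did so in 15.8%. Among strong peaks alone, those with −log10 q of 10 or more chained again, the share was 24% in chains and 41.1% elsewhere. At least 1 peak lay that close to an end in 713 chains, 56.2%, beside 26.6% of single peaks, and a chain has more peaks that can do so. The intervals take each peak as independent, although the peaks of a chain share a locus.

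**Figure D2:**
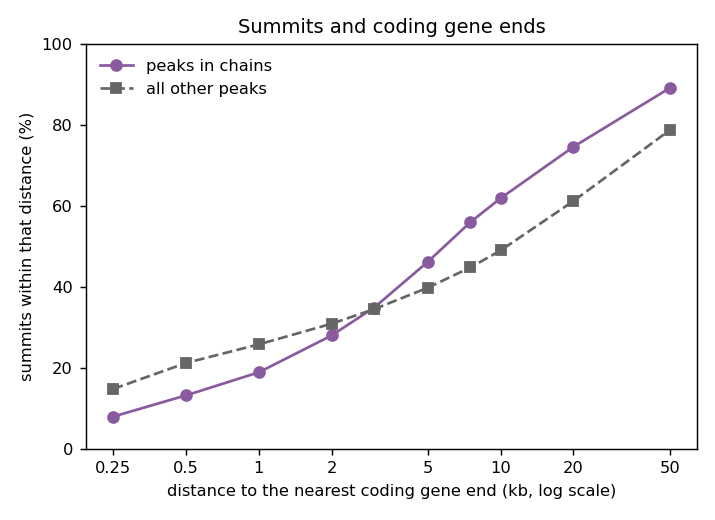
Percentage of summits (y axis) within a given distance of the nearest coding gene end (x axis, kb, log scale), for the 6855 peaks in chains (circles) and the 35717 other peaks (squares). The chain line is lower up to 2 kb and higher from 5 kb on, with 61.9% against 49% at 10 kb.

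Most chains touched a coding gene. An overlap was found for 1047 chains (82.6%, 80.4 to 84.6), beside 76.6% of runs of 3, 72.8% of pairs and 63.5% of single peaks, and the longer span of a chain by itself gives it more room to overlap a gene. A single coding gene was touched by 735 chains, at least 2 by 312 and at least 5 by 22. In 301 chains (23.7%) the whole chain lay inside 1 coding gene, and in 254 (20%) the chain held a whole coding gene. Another 221 chains touched no coding gene and 85 of these no annotated gene at all. The median strongest fold was 9.2 over coding genes and 6.89 in the chains over no gene. The chains over no gene had a median of 4 peaks and at most 10. The strongest fold tends to rise with the number of peaks, for which these sets were not matched. The coding genes overlapped were shorter than coding genes in general, with a median of 18.5 kb against 24.3 kb.

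The chain with the most peaks and the widest span covered the HOXA cluster on chromosome 7 (27092138 to 27211154). HOX genes encode homeodomain factors that set position along the body axis, and the colon keeps its regional code into adult life. The 34 peaks took in all 11 HOXA genes, together with the lncRNA genes HOTAIRM1 and HOTTIP at its ends. Folds ran from 2.46 to 10.3 with a median of 3.8, so the chain was long but not strong. The highest summit lay 245 bp from the nearest annotated end, that of HOXA6, with a pileup of 85 fragments. The widest peak of any chain, 27792 bp, ran from HOXA9 past HOXA11 with a fold of 8.38 (6.47 to 10.7). Of the 34 summits, 15 lay within 1 kb of a coding gene end.

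The HOXB cluster on chromosome 17 (48555534 to 48648064) had the fourth most peaks and the second widest span. Its 25 peaks covered HOXB3 to HOXB9 over 92531 bp, with folds from 2.79 to 7.98. Peaks filled 84.3% of the span, and the broadest were 22901 and 14563 bp wide. HOXB13, a factor of the hindgut and prostate, lay in a separate chain of 4 peaks with a top fold of 4.1. HOXB1 and HOXB2 were in no chain. The HOXC and HOXD clusters had no chain over any of their 9 genes each, with 14 and 3 peaks in all. A peak of any kind stood within 1 kb of an end of 5 HOXC genes and 1 HOXD gene. Chains thus covered 19 of 39 HOX genes (48.7%), and all 19 came from 3 chains.

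**Figure D3:**
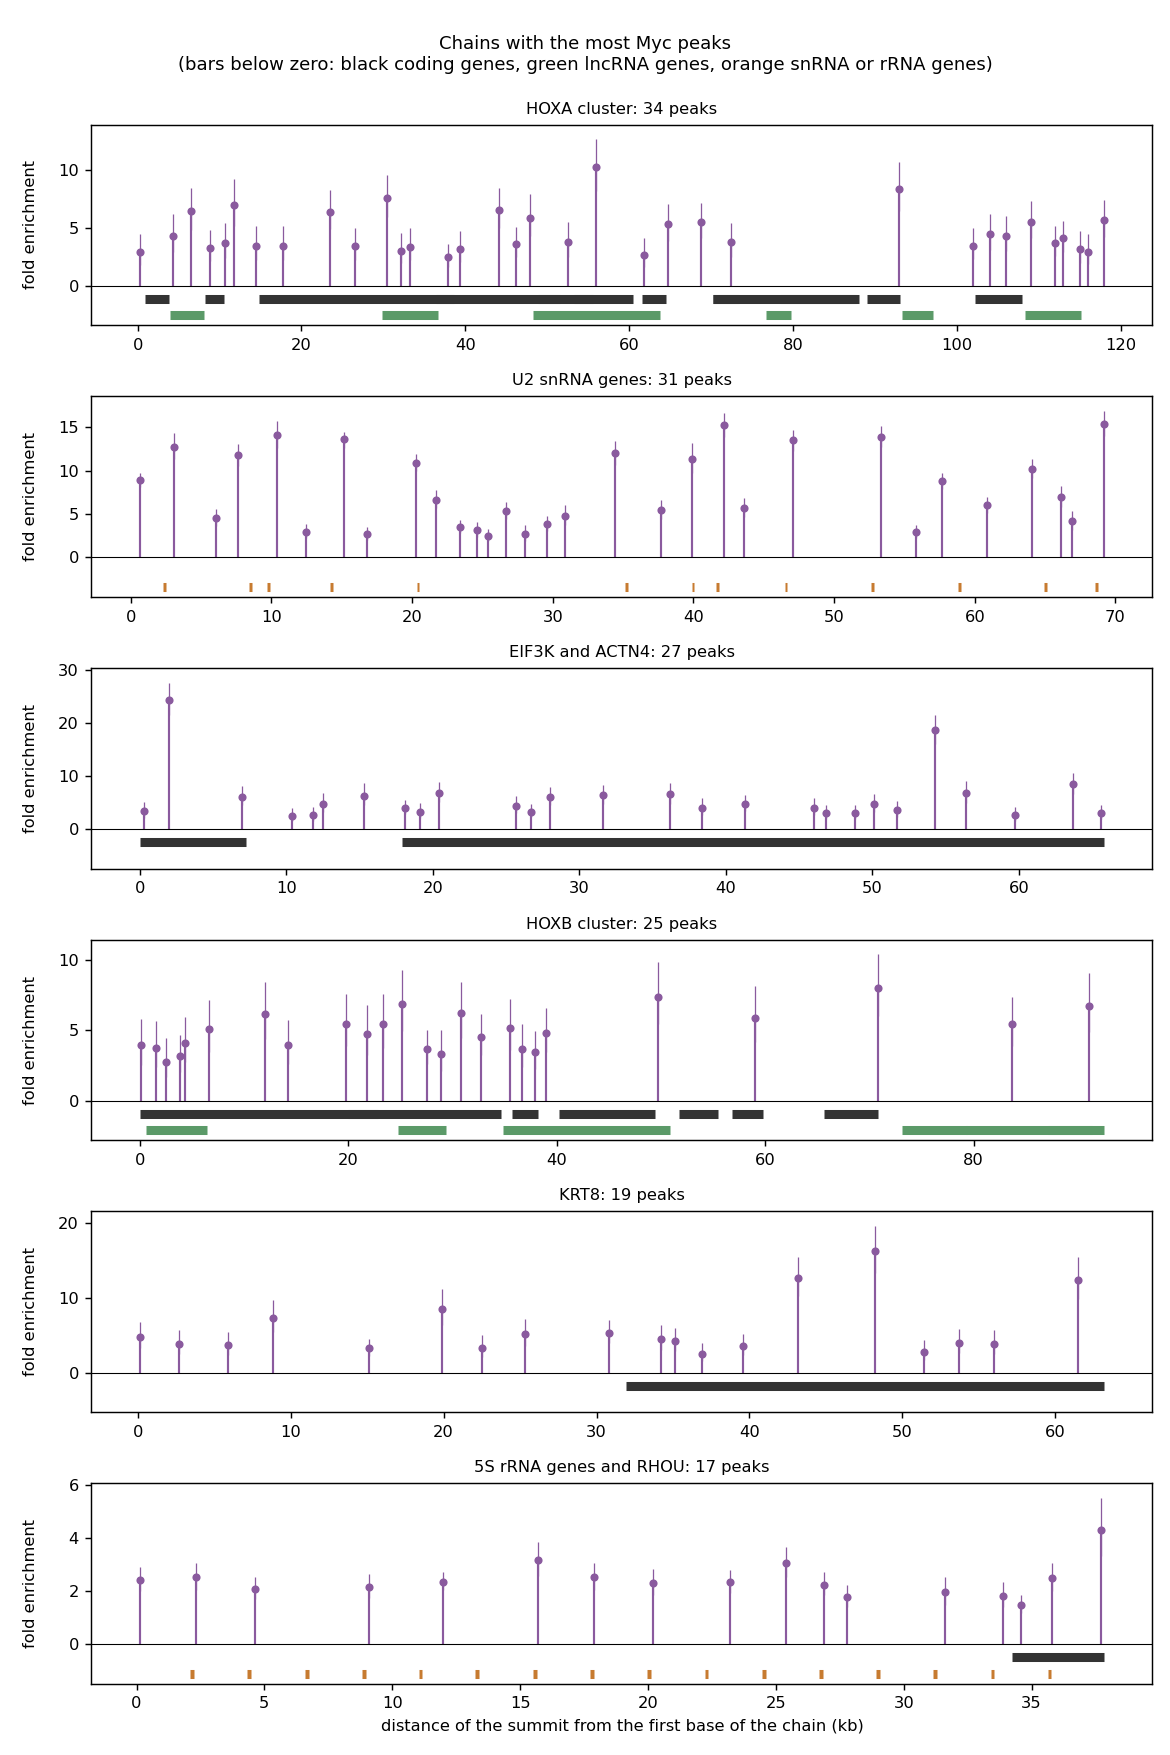
Fold enrichment at the summit (y axis) of each peak in the 6 chains with the most peaks, by distance from the first base of the chain (x axis, kb). Thin lines are exact Poisson 95% intervals for the fold, and bars under the axis mark coding genes (black), lncRNA genes (green) and snRNA or rRNA genes (orange). Peaks stand along the whole HOXA and HOXB clusters, and the summits of the 5S array lie a median of 2228 bp apart.

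Chains also formed over tandem copies of RNA genes, where a read can match several copies and its place is then uncertain. The chain with the second most peaks, 31, covered 13 snRNA genes including RNU2-1 on chromosome 17 (43231492 to 43301934). U2 snRNA is the part of the spliceosome that pairs with the branch point of introns. Folds ran from 2.51 to 15.4 with a median of 6.63, and the median control level was 21.3 fragments, against 5.89 over all chain peaks. The highest pileup there was 812 fragments. The 17 peaks of a chain on chromosome 1 (228610413 to 228648253) covered 16 copies of the 5S rRNA gene and the start of RHOU. Its folds were low, 1.48 to 4.32, and its median control level was 40.3 fragments. The summits lay a median of 2228 bp apart and the 5S genes 2241 bp. In the chain over RNU2-1 the 2 spacings differed, with summits a median of 2184 bp apart and snRNA genes 5504 bp. The copies in each array are near identical, how reads matching several copies were handled is not given in the sources used here, and the part of the high control level in these results was not tested. Without these chains the median fold of chain peaks was 4.27, as with them.

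Genes for transfer RNAs lay in 23 chains, which overlapped 60 of 434 of them (13.8%), beside 7.96% of coding genes. The largest group, 8 genes near OSBP on chromosome 11, lay under 7 peaks with folds from 2.49 to 21.2. Groups of small nucleolar RNA genes, which guide the chemical marking of ribosomal RNA and sit in introns, lay in chains over RPL23A, RPL3, RCC1 and HSPA8, among others. The chain at ZBTB37 on chromosome 1 held 11 snoRNA genes under 4 peaks, with a top fold of 14.8. The median control level of these snoRNA chains was between 5.17 and 7.47 fragments. A chain of 4 peaks near FCGR2A, over 6 transfer RNA genes, had a median control level of 17.1 fragments and folds from 2.13 to 3.08.

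The chain over EIF3K and ACTN4 on chromosome 19 (38629723 to 38695541) joined a long gene body to a strong summit. ACTN4 encodes an actin crosslinker of the cell cortex and EIF3K a subunit of a translation initiation factor. The 27 folds ran from 2.48 to 24.4, with a median of 4.41. The strongest summit, with 247 fragments, was inside EIF3K and 5262 bp from an end, and the next, 18.6 with 182 fragments, was inside ACTN4 and 36396 bp from an end. ACTN4 itself held 22 chain summits. CUEDC1 held 24, the most of any coding gene, in 3 chains. The other genes with 14 or more were MICAL2 with 22, MYO1E and GSE1 with 18, HOXB3 and ATP9A with 16, SLC12A7 with 15, and SMAD7, NTSR1, MET and LOC124905135 with 14. The lengths of these genes ran from 31.1 kb for SMAD7 to 507 kb for GSE1, and long genes have more room for summits.

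The gene lists were chosen with earlier results of these data known, so their order describes these lists only. Among them, epithelial structure genes were most often covered. Chains overlapped 16 of 28 keratin, adhesion and basement membrane genes, 57.1% (39.1 to 73.5) beside 7.96% of all coding genes. KRT8 and KRT18 encode the keratin pair of simple epithelia, lie side by side on chromosome 12, and were covered by neighbouring chains. The KRT8 chain (52865239 to 52928433) had 19 peaks with folds from 2.54 to 16.2, and none of its summits lay within 1 kb of an end. A summit of fold 12.4 lay 223 bp from a transcription start. The chain over KRT18 had 14 peaks with folds from 2.94 to 9.52. KRT80 and EZR, the linker of actin to the membrane of microvilli, had 11 peaks each, with top folds of 14.3 and 7.06. LAMA5, ITGA3, ITGA6, CDH1, EPCAM, CLDN4 and KRT19 were also covered, and the folds at the strongest peaks of these chains ran from 5.96 at CDH1 to 17.7 at CLDN4. KRT20, VIL1, CLDN1, CLDN3 and ITGB4 were among the 12 genes with no chain.

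Immediate early genes, which cells switch on within minutes of a stimulus, were covered almost as often, 13 of 23 (56.5%, 36.8 to 74.4). They are short, with a median length of 4.21 kb, so their chains mostly extended beyond the gene. FOSB, an AP-1 subunit, lay in a chain of 16 peaks with ERCC1 and RTN2 on chromosome 19, with folds from 2.45 to 21.1. No summit fell inside FOSB, and a summit of fold 6.5 with 63 fragments lay 175 bp before it. ZFP36, which destabilises cytokine mRNAs, lay in a chain of 13 peaks that also touched RPS16 and reached a fold of 25. FOSL1 shared a chain of 12 peaks with FIBP, CCDC85B, C11orf68 and DRAP1, and its top fold of 15.9 lay 136 bp from an end of CCDC85B. JUNB shared a chain of 12 peaks with HOOK2, PRDX2, THSD8 and RNASEH2A, and its top fold of 9.75 lay inside HOOK2 and within 1 kb of a transcription start. JUN itself had 4 peaks and a top fold of 9.2. FOS, CCN1, CCN2 and FOSL2 had no chain.

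Transcription factors of the intestine were in chains for 13 of 28 genes (46.4%, 29.5 to 64.2). KLF5, a proliferation factor of the crypts, had 13 peaks on chromosome 13, the strongest at 7.49, 402 bp from a transcription start, and the others between 2.1 and 4.79. SOX9, a factor of crypt base cells, had 7 weak peaks at 3.92, 4.75, 3.12, 2.24, 3.12, 2.89 and 3.48. EHF had 7 peaks, and ELF3, FOXA1 and RXRA had 6. The chain over CDX2, the master factor of intestinal identity, had 5 peaks and reached 17.2. HNF4A, KLF4, CDX1, ATOH1 and HES1 were among the genes without a chain.

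**Figure D4:**
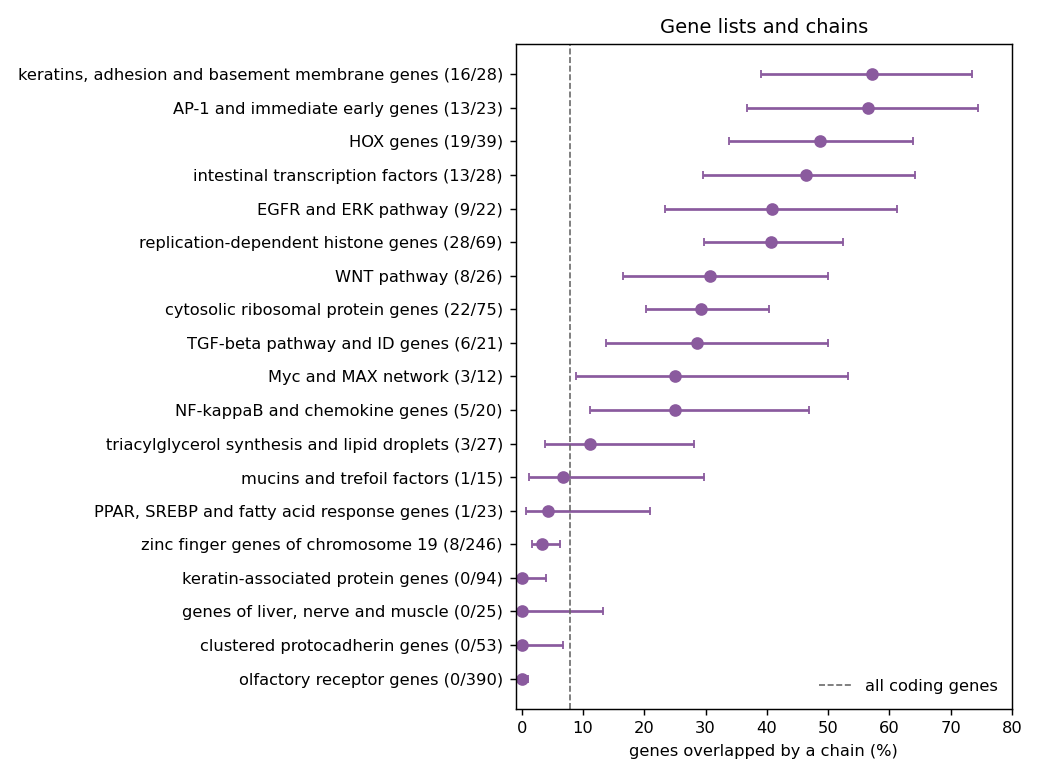
Share of the genes in each list that a chain overlapped (x axis, percent), with the genes overlapped and the members counted in brackets. Bars are Wilson 95% intervals and the dashed line marks the 7.96% of all coding genes. The intervals take each gene as independent, although neighbouring genes can share a chain, so they are too narrow for clustered genes. The 19 HOX genes overlapped came from 3 chains and the 28 histone genes from 6. Epithelial structure, immediate early and HOX genes are highest, and olfactory receptor and keratin-associated protein genes are at 0. The lists were chosen with earlier results of these data known.

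Growth factor and WNT genes followed. Of the EGFR and ERK genes, 9 of 22 were covered (40.9%). EPHA2, an ephrin receptor kinase, had 15 peaks over 51030 bp with folds from 3.05 to 14.6, and none of the summits lay within 1 kb of an end. The widest of these peaks, 14293 bp, ran across an end of the gene. AREG and EREG, neighbouring genes for EGFR ligands, had 7 and 6 peaks. The AREG folds were highest at 7.56, 311 bp from an end, and the EREG folds at 7.06, inside the gene. ERRFI1, an inhibitor of EGFR, had 7 peaks with a top fold of 6.23, while EGFR, the sprouty genes and DUSP6 had no chain. Of the WNT genes, 8 of 26 were covered (30.8%). RNF43, which removes WNT receptors from the cell surface, had the longest with 14 peaks between 2.56 and 8.53, and LRP5, LGR4, TCF7L2, ZNRF3, BCL9L, TLE3 and AXIN2 had 4 to 7. The TCF7L2 chain lay at the start of the gene, its top summit 491 bp from an end with a fold of 8.51. APC, CTNNB1, LEF1 and LGR5 had none.

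Of the TGF-beta and ID genes, 6 of 21 were covered (28.6%, 13.8 to 50), beside 7.96% of all coding genes. No chain summit lay within 1 kb of an end of any of the TGF-beta and ID genes. Transcription starts of the promoter table lay within 1 kb of 3 summits in the SMAD7 chain, 1 in each of 2 SMAD3 chains and 1 in the TGIF1 chain. SMAD7, the inhibitory SMAD, had 15 peaks with folds from 2.49 to 9.52, and 14 of the summits were inside the gene. SMURF1, SMAD3, SMAD6, ID1 and TGIF1 had 4 to 6. Of the NF-kappaB and chemokine genes, 5 of 20 were covered (25%, 11.2 to 46.9). TNFAIP2 had 10 peaks, BCL3, an IκB-like coactivator, had 9, RELA 5, and NFKB2 and LIF 4 each. The NFKB2 folds were 12.3, 7, 4.27 and 3.61, the first 150 bp from an end. No chemokine gene of the list was in a chain.

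Chains overlapped 22 of 75 cytosolic ribosomal protein genes (29.3%, 20.2 to 40.4), in 21 chains. For each of the 22, a chain summit lay within 1 kb of an end. Peaks of any kind stood that close to 72 of the 75, so most of these genes had a peak without a chain. RPLP2, part of the ribosomal stalk, lay in a chain of 15 peaks on chromosome 11 (804276 to 849423) with PIDD1, PNPLA2, CRACR2B, CD151, POLR2L and TSPAN4. In order along the chromosome, 6 folds of 9 or more were 29.5, 9.39, 14.3, 10, 16.6 and 11.3, and the other 9 lay between 2.35 and 8.83. The peak of 29.5 (25.8 to 33.5, 231 fragments) overlapped the window printed above for RPLP2. RPS16 and RPL18 lay in chains of 13 and 10 peaks, with top folds of 25 and 16.5. RPL35A had 4 peaks and reached 22.2. Histone genes were covered more often, 28 of 69 (40.6%), but in 6 chains. The longest, with 10 peaks each, lay on chromosome 6 over 8 histone genes (folds 3.12 to 8.53) and on chromosome 1 over 6 (folds 2.38 to 9.59).

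Genes of fat handling, the subject named in the title of the series, were covered by chains about as often as coding genes in general. Chains overlapped 3 of 27 genes of triacylglycerol synthesis and lipid droplets (11.1%, 3.85 to 28.1). Peaks of any kind stood within 1 kb of an end of 20 of the 27, so most of these genes had a peak without a chain. PNPLA2, the lipase that starts the breakdown of stored fat, lay in the RPLP2 chain with 2 summits inside the gene. MGLL, the last lipase of that pathway, had 6 peaks at 4.37, 3.87, 2.87, 7.85, 4.82 and 4.77. AGPAT2, an acyltransferase on the way to phosphatidic acid, had 5 peaks at 3.61, 4.17, 4.09, 7.5 and 3.17. DGAT2, which catalyses the last step of triacylglycerol synthesis, was in no chain. Of the 23 PPAR, SREBP and fatty acid response genes, FASN alone was covered (4.35%, 0.772 to 21), although 19 of the 23 had a peak within 1 kb of an end. The 4 peaks of the FASN chain, shared with CCDC57, had folds of 17.6, 4.27, 3.81 and 7.25, the first 431 bp from an end. Of 15 mucin and trefoil genes, MUC2, the gel-forming mucin of goblet cells, was the single one covered, with folds of 9.43, 6.25, 2.91 and 3.5.

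In Myc's own network 3 of 12 genes were covered (25%, 8.89 to 53.2), beside 7.96% of all coding genes. MNT, which competes with Myc for MAX, had 6 peaks at 11.4, 6.24, 6.4, 2.95, 15.4 and 3.12. MLXIP and MLXIPL, the glucose sensing relatives, had 4 peaks each, with top folds of 8.04 and 3.89, and none of these 8 summits lay within 1 kb of an end, although 1 in MLXIPL, of fold 3.75, was 146 bp from a transcription start. MAX, MYCL, MYCN and the MXD genes were in no chain. Among large gene families, chains covered 8 of 246 zinc finger genes of chromosome 19 (3.25%, 1.66 to 6.28), although 121 of the 246 had a peak within 1 kb of an end. ZNF628 had the most peaks of these with 8 and a top fold of 23.7. None of 53 clustered protocadherin genes, 390 olfactory receptor genes, 94 keratin-associated protein genes and 25 genes of liver, nerve and muscle was covered. Few of these genes had a peak of any kind within 1 kb of an end, 1, 2, 0 and 3 in the same order. For the olfactory receptors the interval allows a share of up to 0.975%. For the 25 genes of liver, nerve and muscle it allows up to 13.3%, above the 7.96% of all coding genes.

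The 5 chains with the highest folds had their strongest summit 172 to 353 bp from a coding gene end. The highest fold, 36.1 (31.7 to 41, 236 fragments), lay between CBX5, a heterochromatin protein, and HNRNPA1, an RNA binding protein, and its 3 companions had 4.43, 3.77 and 5.91. ZNFX1, an RNA helicase of antiviral defence, followed at 32.7 (29.1 to 36.7, 289 fragments), with 5 other peaks between 2.77 and 5.68. The next was REPIN1 at 30.6. PLK3, a stress kinase, reached 30.1 (26.1 to 34.6) in a chain of 14 peaks in which a second strong peak, 28.3, stood near DYNLT4 and BTBD19. After HOXA, the chains over the most coding genes had 8 each, and 1 of them was the histone chain of chromosome 6. A chain of 9 peaks on chromosome 11 covered TRPT1, NUDT22, DNAJC4, VEGFB, FKBP2, LOC114841035, PPP1R14B and PLCB3, and 8 of its 9 summits lay within 1 kb of an end. A chain of 12 peaks on chromosome 9 covered 8 coding genes around TUBB4B, and 9 of its 12 summits lay that close.

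Chains of 16 peaks also stood at SLC2A1 and CEBPB. SLC2A1, the glucose transporter GLUT1, had 16 peaks over 50962 bp on chromosome 1, with folds from 2.63 to 11.9. CEBPB, a factor of adipocyte and acute phase genes, lay with PEDS1 in a chain of 16 peaks between 2.23 and 10.5, the strongest of them 436 bp from an end. Chains of neighbours often stood close together, and 122 pairs of chains were less than 20 kb apart.

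Some long chains lay over lncRNA genes with no coding gene. A chain of 16 peaks near IFNE on chromosome 9 lay over MIR31HG, the host of miR-31, with folds from 2.91 to 8.98. A chain of 15 peaks lay over LINC-PINT and LINC00513 on chromosome 7 (130884532 to 130926665), 150325 bp from the nearest coding gene, with folds from 2.8 to 8.56. NEAT1 and MALAT1, abundant nuclear RNAs of paraspeckles and speckles, lay in neighbouring chains of 12 and 13 peaks on chromosome 11 with top folds of 11.2 and 15.6, and a peak 19148 bp wide stood in the NEAT1 chain. Of the chains over no annotated gene, the one with the most peaks had 10 and lay 1193 bp from IGSF23 on chromosome 19, with a top fold of 14.2. The next lay near USP12 with 9, S100A10 with 8, and DMBX1 and TEX26 with 7 each. The most closely packed peaks were 4 in 2218 bp over LOC105376080 near TMC1, with folds of 4.52, 4.29, 4.03 and 2.94, and other closely packed chains had 4 or 5 peaks in FNBP1L, NANOS1 and PTPRK.

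MicroRNA genes lay in a small share of chains. In the gene table, chains overlapped 85 of 1703 microRNA genes (4.99%), a lower share than the 7.96% of coding genes. Of 1461 hairpins in the RefSeq table on these chromosomes, 73 were in chains and 47 of those inside a peak, giving 115 mature RNAs with 111 different seeds. The mature sequences below are from RefSeq (GRCh38.p14), with the seed, bases 2 to 8, in capitals, and are shown because they share a seed or are well known in epithelia.
hsa-miR-196b-5p: uAGGUAGUuuccuguuguuggg
hsa-miR-196a-5p: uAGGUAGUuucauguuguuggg
hsa-miR-10a-5p: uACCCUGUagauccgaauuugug
hsa-miR-200b-3p: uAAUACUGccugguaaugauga
hsa-miR-429: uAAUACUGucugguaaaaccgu
hsa-miR-21-5p: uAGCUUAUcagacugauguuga
hsa-miR-194-5p: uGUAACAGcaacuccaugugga
The miR-196 pair has 1 seed and came from both HOX chains, with the hairpins inside the broad peaks of fold 8.38 in HOXA and 7.98 in HOXB. The hairpin of miR-10a, also in HOXB, was 842 bp from the nearest summit and in no peak. The miR-200b and miR-429 seed is that of the microRNAs that hold back the epithelial to mesenchymal switch. Their hairpins lay in a chain of 6 peaks over TTLL10 on chromosome 1, inside peaks of fold 7.22 and 7.77. The hairpin of miR-21, an abundant microRNA of many tumours, lay in the 10 peaks over VMP1, 1117 bp from a summit. The hairpin of miR-194, a microRNA of the gut, lay with that of miR-192 in a chain of 4 peaks over ATG2A, inside a peak of fold 7.23 and 88 bp from its summit.

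Chromosomes differed in the density of chains. Over all 21 chromosomes there were 6.89 chains per 100 coding genes. The densest were chromosome 20 with 15.5 (exact Poisson 95% interval 12.3 to 19.2), chromosome 13 with 13 (9.46 to 17.5) and chromosome 15 with 10.5 (8.13 to 13.4). The sparsest were chromosome 4 with 1.95 (1.09 to 3.22) and chromosome 14 with 3.31 (2.02 to 5.11). Chains held 29.1% of the peaks of chromosome 19, 25.6% on chromosome 20 and 23.4% on chromosome 17, against 5.17% on chromosome 4 and 16.1% overall. Chromosomes 13 and 15 had 15.3% each, and they had 463 and 334 peaks of any kind per 100 coding genes, 2 of the 3 highest values, with 346 on chromosome 20. The control level at single peaks, which chains do not enter, had its highest medians on chromosome 13 (7.14 fragments), chromosome 15 (6.43) and chromosome 20 (6.36). Its lowest medians were on chromosomes 14 and 21 (5.09). That is the lowest control level at any of these peaks, at which 24% of all single peaks stood, so lower levels cannot be told apart there. Chromosome 4 had 5.57 and chromosome 19 also 5.57. The part of copy number or of the control level in the density of chains was not tested.

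**Figure D5:**
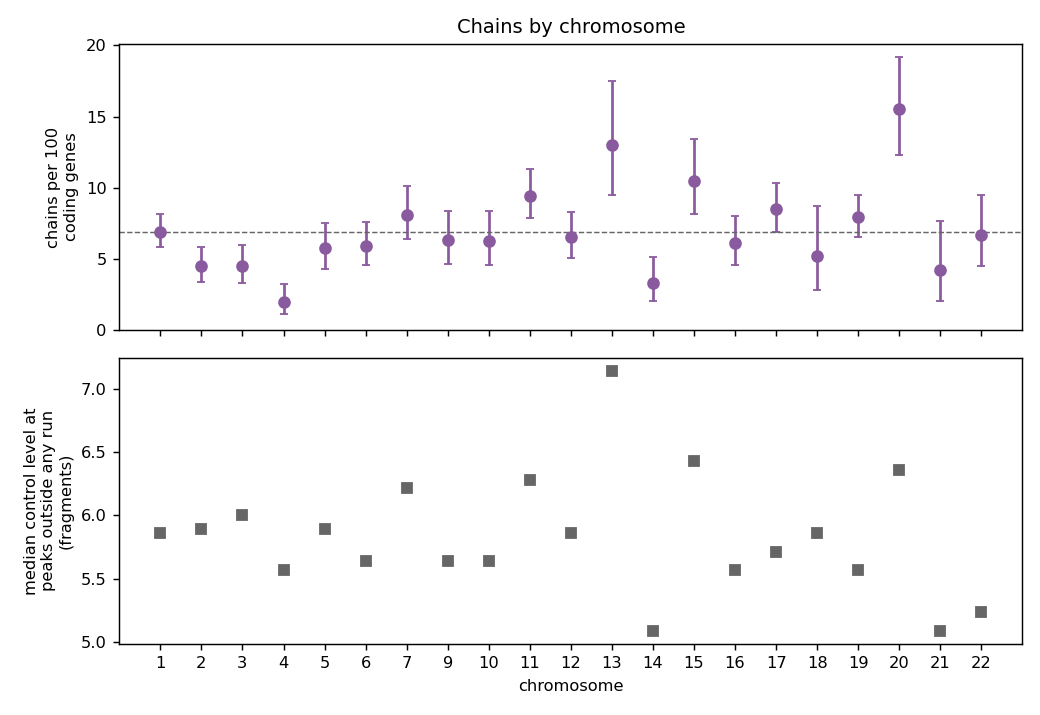
Chains per 100 coding genes on each chromosome (upper panel, with exact Poisson 95% intervals, dashed line at the overall 6.89) and the median control level in fragments at peaks outside any run (lower panel, axis not from 0). Chromosomes 20, 13 and 15 are highest in the upper panel and, with chromosome 13 first, also in the lower one.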

How the data were processed

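CUT&RUN libraries were aligned to build hg38. Per the submitters' processing notes, which name tools without settings, the list includes BWA 0.7.15 for alignment and MACS2 2.1.2 for peaks, beside HOMER 4.11.1 and Picard 2.19.0. The control, any joining of replicates and any removal of duplicates were not given in the sources used here. Deposited by the authors was 1 peak list with, for each peak, a ratio (fold enrichment at the summit), its −log10 p, its −log10 q, and a display score that was not used. From fold and −log10 p, whole-number pileups were recovered for all 42572 peaks (tolerance 0.001 in −log10 p; smallest pileup 14). Folds carry exact Poisson 95% intervals, computed from the pileup at a fixed control level. Fragments carry no molecular identifiers, so intervals cover counting error and not the spread between libraries. The chaining and the recovery were tested on simulated data and returned 100% of 305 chains and 100% of 2000 pileups.

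Genes came from RefSeq (GRCh38.p14). The gene table has no strand, so either annotated end of a gene was used, and starts came from the promoter table for 15100 of 18408 coding genes. Shares have Wilson 95% intervals, which take each peak, chain or gene as independent. The peaks that define the chains also give their values, so no test was run. Analyses used Python 3.11.15, pandas 2.3.3, numpy 2.4.6 and scipy 1.17.1. Alternatives changed the gap, the q threshold, the widest peak, the gene overlap and the window. The members and gene lists (1236 genes matched) were chosen with earlier results of these data known. Named were the 10 chains with most peaks, widest span or most coding genes, the 5 with the highest fold or densest peaks, the 10 genes with most summits (with ties), up to 4 genes per list, and the 5 chains with most peaks over no gene. Other list members and microRNAs were named after their values were seen. A few genes that meet the naming rule are not reported here.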

Additional observations from a re-analysis of the deposited data

Results flagged for a closer look

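The X chromosome lies outside the chromosomes on which chains were counted, and the same rule found 9 chains there. They held 52 of the 884 peaks on X (5.88%), or 1.06 chains per 100 coding genes. The longest, with 9 peaks each, covered FLNA with EMD (top fold 13.3) and PNCK, SLC6A8 and BCAP31 (top fold 10.7). FLNA encodes the actin crosslinker filamin A. EFNB1, an ephrin ligand, had 7 peaks with a top fold of 14.3. The strongest peak of these chains, 27.7, was in a chain of 4 peaks over RPL10, DNASE1L1 and TAFAZZIN.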

How the results depend on the processing

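With gaps of at most 1000 bp, 227 chains held 2.5% of peaks with a median span of 6928 bp; 86.3% touched a coding gene, 21.6% of chain summits lay near a gene end (24.7% of other summits) and the median fold was 4.43. With gaps of up to 10000 bp, 2068 chains held 30.1% of peaks, with 19219 bp and 85%. Keeping peaks with −log10 q of 10 or more left 206 chains with 4.99% of peaks, 14649 bp, 89.3% over coding genes, 24% of summits near an end (41.1% of the others) and a median fold of 6.89 (6.8). Without peaks wider than 2000 bp, 900 chains held 11.6% of peaks, with 10232 bp, 78%, 16.1% (21.3%) and 3.94 (3.98). A gene end within 500 bp was found for 13.2% of chain summits and within 5000 bp for 46.2%, where the order of chain and other peaks turned round. A whole coding gene lay inside 20% of chains. Merging peaks under 500 bp apart first, chosen after seeing the data, gave 11.3% of peaks, 13828 bp and a median fold of 4.46 (4.35), and transcription starts gave 14.9%. The other recomputed values stayed within counting error of those reported, except the chain counts, 900 without wide peaks and 863 with merging. No interval was listed more than once, so taking 1 peak per interval changed no value. No paired analysis was possible because the list holds no values per library, and for the same reason no library could be left out. The smallest pileup was 14 fragments, and sites with fewer cannot appear.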
